A study of Mus musculus with 12 samples.

Results

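The genes described here are 32 genes of the oligodendrocyte lineage and of myelin, given by symbol and looked up by Ensembl ID in both count tables of a study of follistatin (Fst) in the mouse dentate gyrus. They are 32 of 52636 genes in each table, and 31 of them had a count in all 12 libraries. Oligodendrocytes are the glia that wrap axons of the brain in myelin. They arise from dividing precursors that carry Pdgfra and Cspg4, pass through a newly formed stage, and then make the proteins and lipids of the sheath. In the dentate gyrus most of them lie among axons outside the granule cell layer. Follistatin is secreted and traps activins, ligands of the transforming growth factor beta family, before they reach receptors.

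Dentate gyrus RNA from C57BL/6 mice was sequenced as 4 groups of 3 libraries. The KO libraries (M1, F1 and M2) came from Fst knockout mice and the WT libraries (M1, F1 and M2) from wild type mice. The Fst vector libraries (M1, M2 and F) came from mice described as overexpressing with AAV9-CB::Fst, with no genotype stated for them, and the GFP vector libraries (M1, M2 and F) from knockout mice given AAV9-CB::GFP, so both of these groups carry an adeno-associated viral vector. KO and WT share a count table and the vector groups share another. Not given in the sources used here were the age of the mice, the site of injection and the number of mice behind a library, so a p-value speaks only of the spread among libraries, which may be technical.

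Libraries held 8081824 to 11331337 counts, and 3 counts equal 0.265 to 0.371 CPM (a gene's share of the library total, scaled so that a library sums to 1000000). Fst stood at 0.215, 0.428 and 0.203 CPM in the KO libraries, against 3.57, 3.54 and 4.50 CPM in the WT libraries. It reached 204, 189 and 166 CPM in the Fst vector libraries, against 0, 0.0974 and 0 CPM in the GFP vector libraries. All 10 granule cell markers listed for the tissue were detected, at a summed 1907 to 2644 CPM. Titles and descriptions give different sexes for 4 libraries (F1 and M2 of both KO and WT), and Xist and Ddx3y counts followed the titles in all 12. Genes annotated as ribosomal RNA took 0.0115 to 0.0209% of counts in 5 libraries (Fst vector M2 and F, GFP vector M2, KO M2 and WT F1) and 0.00055 to 0.00098% in the 7 other libraries.

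The promoters of 4 myelin genes are printed because these genes had higher CPM in all 3 Fst vector libraries than in any GFP vector library, and because they differ in the letters that the lineage's own transcription factors are known to bind. RefSeq promoter windows (GRCm38.p6, 250 bases before to 50 after the start) matched 20 of the 32 genes. Each line gives the first 200 bases of the window, on the gene's strand, and capitals mark ACAAAG or ACAATG, letters bound by SOX proteins such as Sox10, and CTGGCAC or CTGGTAC, letters bound by Myrf. Both strands were searched, so CTTTGT marks the first of these letters on the opposite strand, and no matches overlapped.
Mobp, chr9:120149492-120149691, plus strand: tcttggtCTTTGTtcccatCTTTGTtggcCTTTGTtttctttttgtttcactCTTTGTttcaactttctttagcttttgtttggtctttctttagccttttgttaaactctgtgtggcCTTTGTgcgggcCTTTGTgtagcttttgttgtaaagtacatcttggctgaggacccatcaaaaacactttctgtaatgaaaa
Cnp, chr11:100574689-100574888, plus strand: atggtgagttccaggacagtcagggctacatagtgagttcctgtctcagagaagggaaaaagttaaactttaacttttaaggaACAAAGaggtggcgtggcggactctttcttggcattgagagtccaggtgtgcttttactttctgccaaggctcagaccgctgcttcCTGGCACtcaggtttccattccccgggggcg
Mag, chr7:30914914-30915113, minus strand: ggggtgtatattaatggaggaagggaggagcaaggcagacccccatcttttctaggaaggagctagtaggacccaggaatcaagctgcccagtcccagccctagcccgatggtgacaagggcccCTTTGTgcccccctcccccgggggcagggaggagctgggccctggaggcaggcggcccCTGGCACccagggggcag
Gjc3, chr5:137963149-137963348, minus strand: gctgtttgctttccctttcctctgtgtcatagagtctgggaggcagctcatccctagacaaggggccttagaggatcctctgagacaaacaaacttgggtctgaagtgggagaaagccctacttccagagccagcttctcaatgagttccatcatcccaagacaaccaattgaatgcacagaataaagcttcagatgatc

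Mobp held 6 SOX matches in this stretch, Cnp and Mag held 1 SOX and 1 Myrf match each, and Gjc3 held none. In the whole 300-base windows, SOX letters occurred in 8 of the 20 matched genes (40%), against 28.8% of 27025 windows of all genes. Myrf letters occurred in 5 of the 20 (25%), against 7.07% of all windows. They were those of Cnp, Mag, Mog, Hapln2 and Opalin. A match of this kind describes letters and not a bound site.

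Per kilobase of exon, Mbp, the basic protein that holds the cytoplasmic faces of compact myelin together, had the highest level of the 32 genes in WT libraries, 58.3 ± 2.44 CPM per kb (SD, n = 3). Olig1, a transcription factor of the whole lineage, followed at 24.1 ± 2.27 CPM per kb and stood apart from its neighbours. Cnp, a phosphodiesterase of non-compact myelin, had 17.0 ± 1.41 CPM per kb, the chaperone Cryab 15.7 ± 1.13, Mobp 13.8 ± 1.24, the tight junction protein Cldn11 13.3 ± 0.782 and Mal 12.1 ± 1.34 CPM per kb. Neighbours in this run from Cnp to Mal differed by less than the sum of their SDs. The other genes ran from Sox10 at 7.002 ± 0.428 down to Nkx6-2 at 0.619 ± 0.375 CPM per kb. At the low end were Aspa at 0.497 ± 0.0593, Enpp6 at 0.259 ± 0.0317 and Trf at 0.149 ± 0.0197 CPM per kb. The same 7 genes led in the same order in the Fst vector libraries, with Mbp at 99.0 ± 6.78 and Olig1 at 35.2 ± 3.17 CPM per kb.

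Trf encodes the iron carrier transferrin and had 0 to 1.34 CPM, with no count in KO F1 and KO M2, where a count of 0 allows up to 0.321 and 0.305 CPM. It shares 2108 of its 3320 exon bases with the annotated gene Gm20425, which had 0 counts in every library. Whether reads were lost between them was not tested, and Trf was too low to enter the tests below. The other 31 genes all passed the filter on low counts.

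Between the Fst vector and GFP vector groups, most of the 31 tested genes had a positive log2 change, and none passed the test adjusted over all genes. Of 31 genes tested, 29 had a positive log2 change and 2 a negative one, with a median of 0.30, against 51.0% positive and a median of 0.01 over all 15034 genes tested. The edgeR quasi-likelihood test called 0 of the 31 at an adjusted p under 0.05, where 12 genes of all tested were called (0.0798%). At an unadjusted p under 0.05 there were 7 higher and 0 lower, against 4.34% higher and 5.16% lower over all genes in edgeR. DESeq2, run without that filter, also gave 0 called and 7 higher. Over its 27319 genes it gave 247 called, and 578 higher and 841 lower at an unadjusted p under 0.05. The 7 genes were Gjc3, Cnp, Mbp, Bcas1, Mobp, Aspa and Evi2a.

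Among proteins of the sheath and its membranes, Mbp, of compact myelin, had 826, 789 and 901 CPM in Fst vector libraries M1, M2 and F, against 610, 670 and 578 CPM in GFP vector libraries M1, M2 and F. All 3 Fst vector libraries lay above all GFP vector libraries. The log2 change was 0.40 ± 0.13 (SE), a 1.32-fold higher level with an interval of 0.11 to 0.69 on the log2 scale (95%), and an edgeR adjusted p of 0.377. Mobp, another basic protein of the compact sheath, had 162, 156 and 190 CPM in Fst vector libraries, against 116, 139 and 122 CPM in GFP vector libraries. The groups did not overlap here either, with a log2 change of 0.39 ± 0.13 and an edgeR adjusted p of 0.391. Mag, the adhesion protein that faces the axon, had 43.2, 37.6 and 55.8 CPM in Fst vector libraries, against 35.4, 35.3 and 35.5 CPM in GFP vector libraries. The Fst vector libraries were again the higher 3, with an SD of 20.5% of their mean, while the GFP vector libraries were nearly equal. Its log2 change was 0.33 ± 0.16, with an unadjusted p of 0.0723 in edgeR. Of the other genes of this role, Mal, which sorts myelin membrane, had 0.26 ± 0.16, the oligodendrocyte membrane protein Opalin 0.39 ± 0.32, and Mog, the surface glycoprotein of the sheath, 0.17 ± 0.19 as log2 change.

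**Figure D1:**
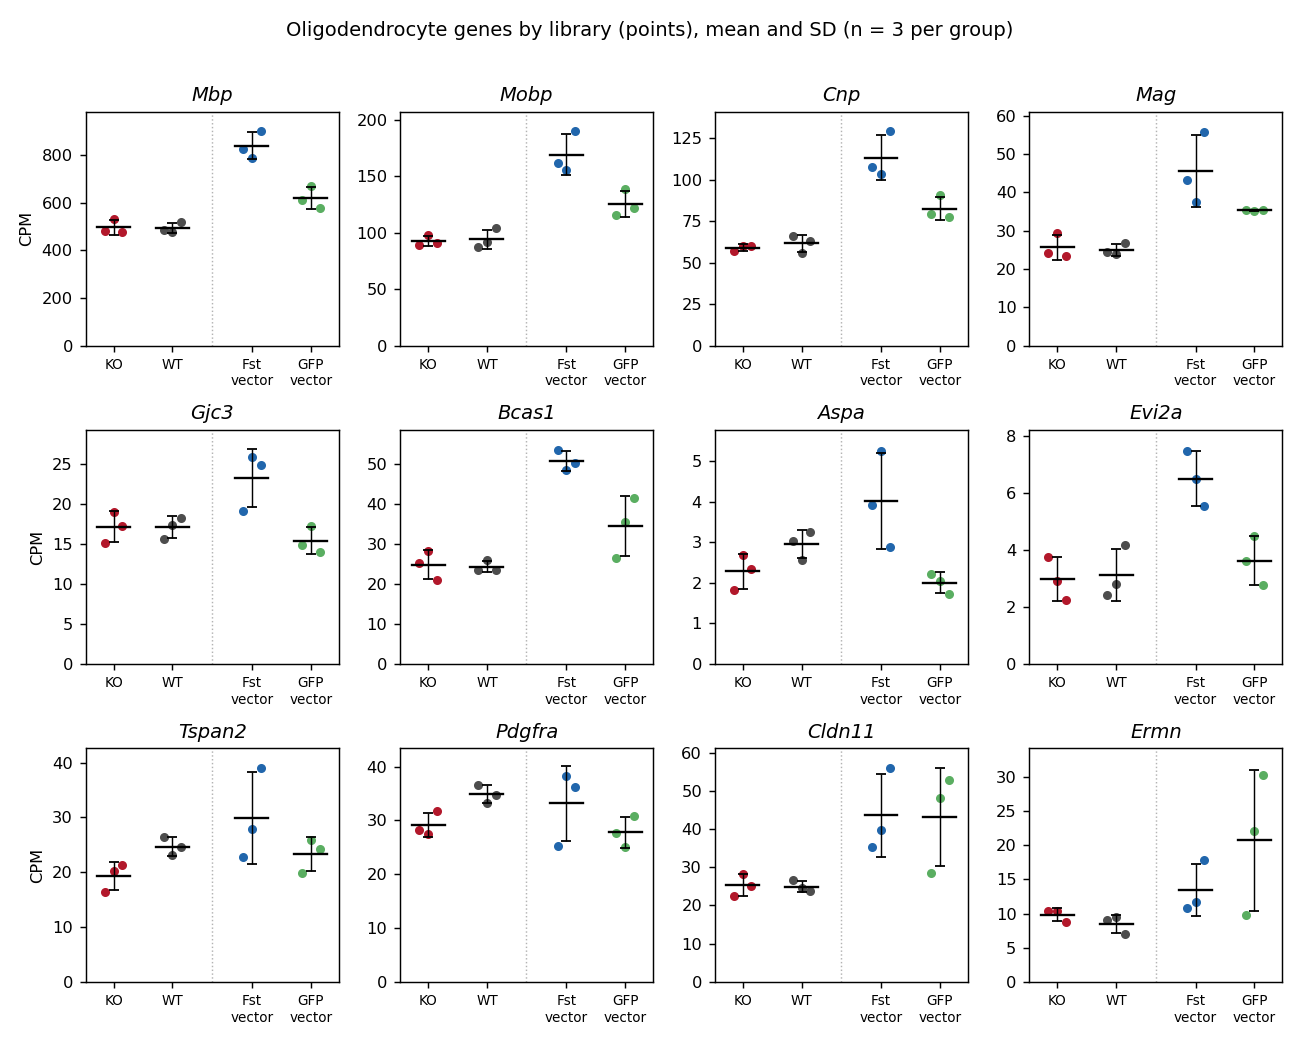
CPM of 12 oligodendrocyte genes in each library (points), with the group mean (bar) and SD (n = 3), for KO, WT, Fst vector and GFP vector libraries from left to right; the dotted line parts the separately deposited tables. The 3 Fst vector points lie above the 3 GFP vector points for Mbp, Mobp, Cnp, Mag, Gjc3, Bcas1, Aspa and Evi2a, and the KO points lie below the WT points for Tspan2 and Pdgfra.

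In that plot of CPM by library, Cldn11 and Ermn part from the other myelin genes. Cldn11, the claudin of tight junctions between myelin layers, had 35.2, 39.8 and 55.9 CPM in Fst vector libraries, against 28.6, 48.1 and 52.8 CPM in GFP vector libraries. Ermn, the actin-binding protein ermin, had 10.8, 11.7 and 17.8 CPM in Fst vector libraries, against 9.78, 22.1 and 30.3 CPM in GFP vector libraries. Both genes overlapped between the groups, with GFP vector M2 and F well above GFP vector M1. They gave the only negative log2 changes of the 31, -0.02 ± 0.25 for Cldn11 and -0.67 ± 0.39 for Ermn. With library totals in place of TMM scaling, Cldn11 turned positive and Ermn alone stayed negative. With same-named vector libraries taken as pairs, Ermn had an unadjusted p of 0.0325 and an adjusted p of 0.289 in edgeR.

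At an unadjusted p under 0.05, where 4.34% of all genes were higher, the higher genes by role were 2 of 7 for sheath and membrane proteins, 4 of 9 for axon contact, junctions and the cytoskeleton, 1 of 6 for enzymes, 0 of 5 transcription factors and 0 of 4 precursor and receptor genes. The 4 were Cnp, Gjc3, Bcas1 and Evi2a. Roles were assigned by hand, and Bcas1 could also stand with genes of the newly formed stage. These counts therefore depend on the placement and do not separate contact genes from newly formed or precursor genes. Among genes of contact and cytoskeleton, Cnp had 108, 103 and 129 CPM in Fst vector libraries, against 79.6, 90.6 and 77.7 CPM in GFP vector libraries, a log2 change of 0.42 ± 0.13 with an edgeR adjusted p of 0.349. Gjc3, a connexin of myelinating glia, had 19.1, 25.8 and 24.8 CPM in Fst vector libraries, against 14.8, 17.2 and 14.0 CPM in GFP vector libraries. Its log2 change of 0.56 ± 0.17 carried the smallest unadjusted p of the 31 genes, 0.00934, and an edgeR adjusted p of 0.349. Neither gene overlapped between the groups. Cnp shares 154 exon bases with Dnajc7 on the opposite strand. Dnajc7 had 1431, 1128 and 1036 counts in Fst vector libraries M1, M2 and F, against 997, 1179 and 1189 in GFP vector libraries M1, M2 and F. The handling of strand was not stated, and whether reads of Dnajc7 in these bases were counted for Cnp was not tested.

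Bcas1, which marks oligodendrocytes that are starting to make myelin, had 53.6, 48.7 and 50.4 CPM in Fst vector libraries, against 26.6, 35.5 and 41.5 CPM in GFP vector libraries. Its log2 change was 0.52 ± 0.17 with an edgeR adjusted p of 0.381, and the groups did not overlap. Bcas1 lies at chr2:170346991-170427845 on the minus strand (GRCm38, GENCODE annotation). It shares 440 exon bases with Bcas1os1 on the opposite strand, which had 0 to 2 counts in each library. Evi2a, a gene inside an intron of Nf1 (chr11:79526560-79530609, minus strand), had 7.46, 6.48 and 5.54 CPM in Fst vector libraries, against 3.59, 4.48 and 2.77 CPM in GFP vector libraries. Its log2 change was 0.81 ± 0.27 with an edgeR adjusted p of 0.395, again without overlap. Evi2a shares 442 exon bases with the annotated gene Evi2 on the same strand, which had 4 counts in WT M2 and 0 in the other libraries. Whether reads were lost between Evi2a and Evi2, or counted for Bcas1 from Bcas1os1, was not tested. The tetraspanin Tspan2 had 0.32 ± 0.21, the node of Ranvier link protein Hapln2 0.32 ± 0.24, the phosphatase inhibitor Ppp1r14a 0.33 ± 0.22 and the focal adhesion adaptor Lims2 0.00 ± 0.29 as log2 change, and each of these overlapped between the groups. Lims2 turned negative with RLE scaling factors.

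Of the enzymes, Aspa, which splits N-acetylaspartate and so frees acetate for lipid synthesis, had 3.93, 5.27 and 2.88 CPM in Fst vector libraries, against 2.23, 2.05 and 1.72 CPM in GFP vector libraries. Every Fst vector library was above every GFP vector library at these low counts, and the log2 change of 0.98 ± 0.32 was the largest of the 31 (edgeR adjusted p of 0.392). Cryab, a small heat shock protein, had 45.5, 35.3 and 36.6 CPM in Fst vector libraries, against 22.1, 32.5 and 33.3 CPM in GFP vector libraries, a log2 change of 0.38 ± 0.19. Its groups did not overlap, but 1 value, GFP vector M1, was far below the rest. The galactosylceramide synthase Ugt8a had a log2 change of 0.28 ± 0.31, the fatty acid hydroxylase Fa2h 0.25 ± 0.21, the secreted phospholipase Enpp2 0.21 ± 0.15 and the choline phosphodiesterase Enpp6 0.26 ± 0.51, all with overlap.

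**Figure D2:**
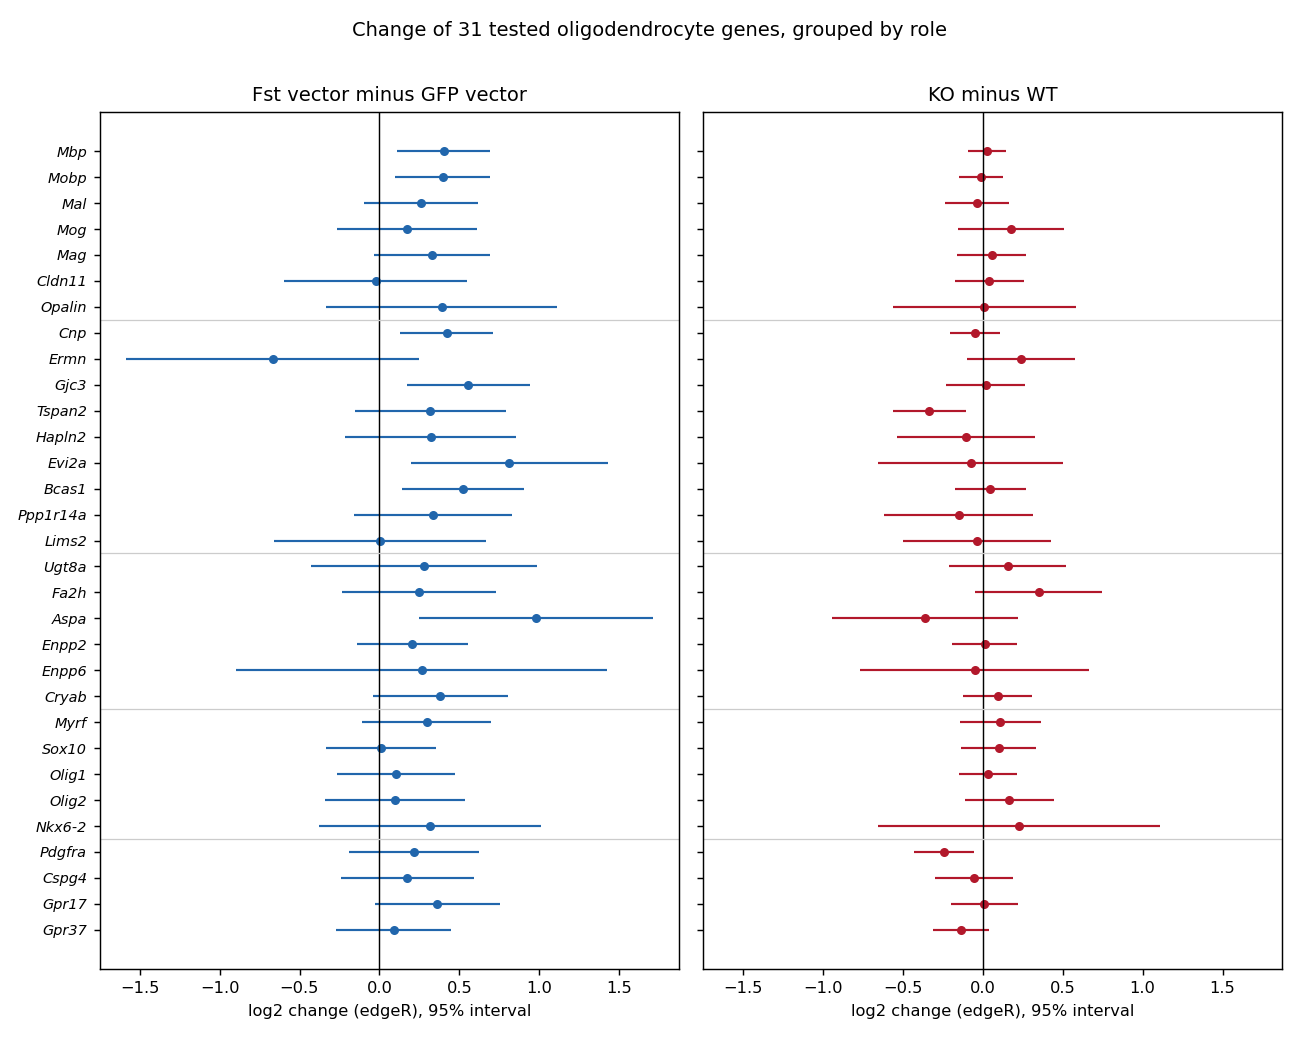
Log2 change of the 31 tested genes with its interval (95%) from edgeR, for Fst vector minus GFP vector (left) and KO minus WT (right), in 5 blocks by role from sheath and membrane proteins at the top to precursors and receptors at the bottom. On the left 7 intervals lie above 0 and 29 of 31 points are positive; on the right 2 intervals, those of Tspan2 and Pdgfra, lie below 0.

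Transcription factors and precursor genes fill the lower blocks in the plot of changes by role. The 5 factors had a median log2 change of 0.10, with 0.01 ± 0.15 for Sox10, 0.10 ± 0.16 for Olig1, 0.10 ± 0.19 for Olig2, 0.30 ± 0.18 for Myrf, which drives the late myelin program, and 0.32 ± 0.31 for Nkx6-2. The 4 precursor and receptor genes had a median of 0.195, with 0.22 ± 0.18 for the growth factor receptor Pdgfra, 0.17 ± 0.18 for the proteoglycan Cspg4, 0.36 ± 0.17 for Gpr17, a receptor of committed precursors, and 0.09 ± 0.16 for the receptor Gpr37. By role the medians were 0.33 for sheath and membrane proteins, 0.33 for contact and cytoskeleton and 0.27 for enzymes. These medians were not tested against each other, and they too depend on the role in which a gene was placed. Nkx6-2 shares 246 exon bases with Inpp5a and Gpr17 shares 188 with Lims2, on opposite strands. Whether reads in these bases were counted for the other gene was not tested.

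In all, 9 of the 31 genes did not overlap between the vector groups, all of them higher with the Fst vector: Mbp, Cnp, Mag, Mobp, Gjc3, Aspa, Cryab, Bcas1 and Evi2a. The same 9 and 0 resulted from CPM and from TMM-scaled CPM. Over all genes tested, TMM-scaled CPM gave 7.98% higher and 7.7% lower without overlap, and CPM gave 10.5% higher and 6.01% lower. In bulk tissue, more oligodendrocytes and more RNA of these genes per cell cannot be told apart. Fst vector F had the highest value of all 12 libraries for 14 of the 32 genes, Fst vector M1 for 7 and Fst vector M2 for 5. The same count was not made over all genes. All 3 Fst vector libraries lay above the other 9 in CPM for 8 of the 31 genes, against 5.07% of all genes. Without Fst vector F the median log2 change was 0.18 and the genes at an unadjusted p under 0.05 were Gjc3, Cnp, Bcas1, Aspa and Evi2a. Over all 15420 genes tested without that library, 648 were higher and 732 lower at this limit.

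**Figure D3:**
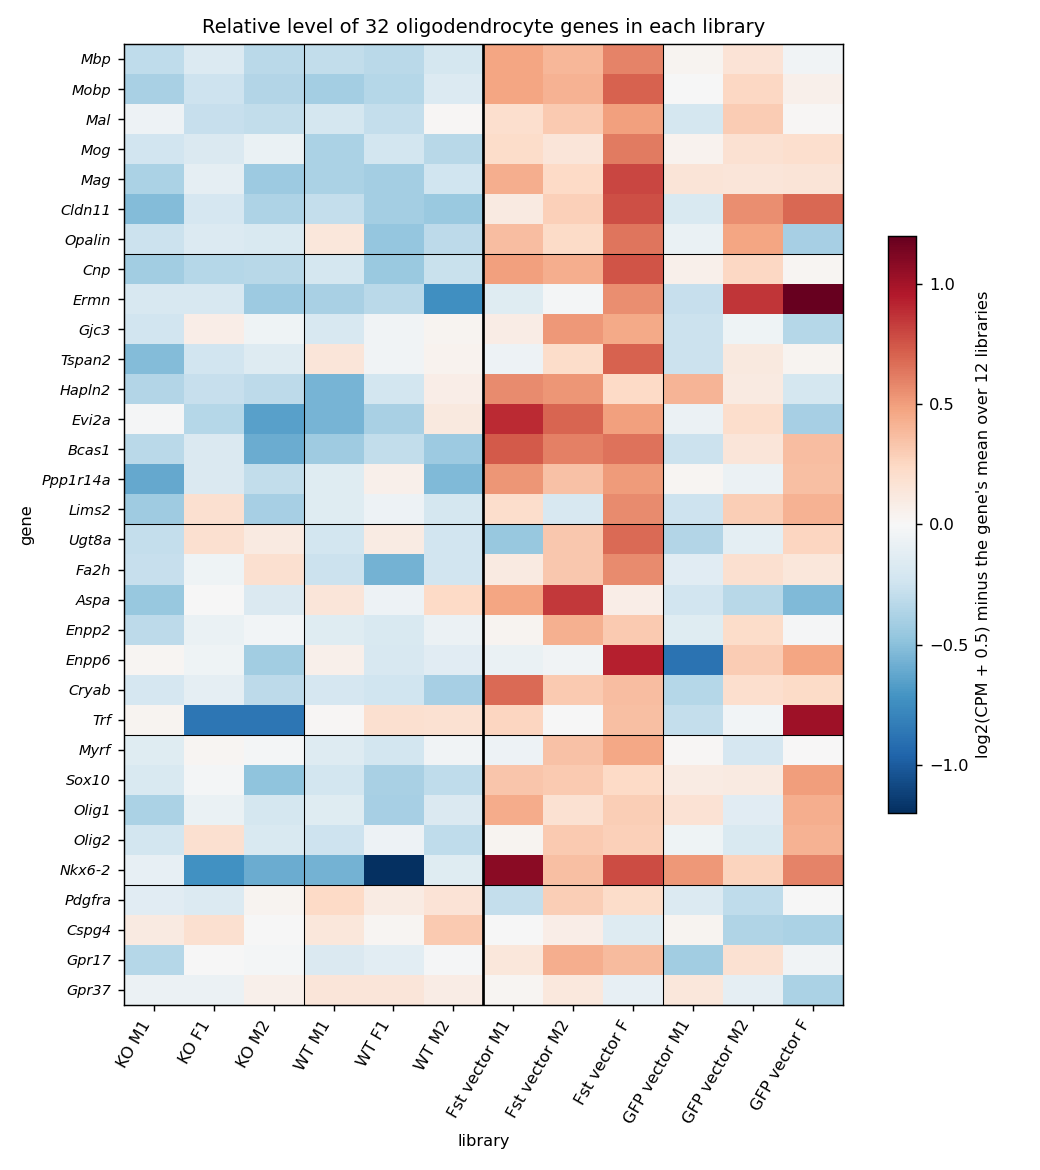
Level of each of the 32 genes in each library as log2(CPM + 0.5) minus the gene's mean over the 12 libraries (colour; rows in blocks by role, columns KO, WT, Fst vector and GFP vector). The rows of sheath and membrane proteins are darkest red in Fst vector F, Ermn stands out in GFP vector M2 and F, and Pdgfra, Cspg4 and Gpr37 are pale in most columns.

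The heat map of relative levels shows that the spread within groups was shared by many genes. The median relative level of the 32 genes was 0.21, 0.32 and 0.50 in Fst vector libraries M1, M2 and F, against -0.11, 0.16 and 0.10 in GFP vector libraries M1, M2 and F. In KO libraries M1, F1 and M2 it was -0.26, -0.13 and -0.29, against -0.20, -0.22 and -0.17 in WT libraries M1, F1 and M2. The 32 genes summed to 1737, 1719 and 1955 CPM in Fst vector libraries, against 1317, 1482 and 1403 CPM in GFP vector libraries, and Mbp made up 41.2 to 47.6% of the sum in all 12. Without Mbp the sums were 911, 930 and 1054 CPM in Fst vector libraries, against 707, 812 and 825 CPM in GFP vector libraries.

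KO and WT differed little in these genes. The 32 genes summed to 1078, 1198 and 1097 CPM in KO libraries, against 1128, 1096 and 1177 CPM in WT libraries. The edgeR quasi-likelihood test called 0 of 31 genes, where 4 of 14919 genes were called (0.0268%), and DESeq2 called 0 as well. At an unadjusted p under 0.05 there were 0 higher and 2 lower, by either tool, against 2.95% higher and 3.01% lower over all genes in edgeR. Over its 27205 genes DESeq2 gave 256 higher and 206 lower at this limit. Of the 31 log2 changes 18 were positive and 13 negative with a median of 0.01, against 49.7% positive and a median of 0.00 over all genes. With library totals 14 were positive and 17 negative.

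The 2 lower genes were Tspan2 and Pdgfra. Tspan2 had 16.4, 20.2 and 21.3 CPM in KO libraries M1, F1 and M2, against 26.5, 23.1 and 24.5 CPM in WT libraries M1, F1 and M2, a log2 change of -0.33 ± 0.11 with an unadjusted p of 0.00565 and an adjusted p of 0.616 in edgeR. Pdgfra, the receptor for platelet-derived growth factor on precursors, had 28.1, 27.5 and 31.7 CPM in KO libraries, against 36.6, 33.3 and 34.7 CPM in WT libraries, a log2 change of -0.24 ± 0.09 with an adjusted p of 0.751 in edgeR. Both lay lower in all 3 KO libraries than in any WT library, and so did Gpr37, with 36.2, 36.3 and 39.7 CPM in KO libraries, against 42.2, 42.2 and 40.5 CPM in WT libraries (log2 change -0.14 ± 0.09). These were 3 genes without overlap on the lower side and 0 on the higher side. Over all genes tested, TMM-scaled CPM gave 5.79% lower and 5.17% higher, and CPM gave 7.04% lower and 3.98% higher. Without KO M1 neither Tspan2 nor Pdgfra had an unadjusted p under 0.05 and Fa2h had one of 0.0349, and without WT M1 Tspan2 alone had one.

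The next smallest p-values in KO were those of Fa2h, Gpr37, Ermn and Aspa. Fa2h had 5.91, 6.96 and 8.33 CPM in KO libraries, against 5.98, 4.72 and 6.09 CPM in WT libraries, a log2 change of 0.35 ± 0.19. Ermn had 10.4, 10.4 and 8.74 CPM in KO libraries, against 9.03, 9.44 and 6.97 CPM in WT libraries, a log2 change of 0.24 ± 0.17. Aspa had 1.83, 2.68 and 2.34 CPM in KO libraries, against 3.04, 2.57 and 3.27 CPM in WT libraries, a log2 change of -0.36 ± 0.28. All of these overlapped between the groups except Gpr37. Mbp stood at 482, 533 and 475 CPM in KO libraries, against 487, 478 and 517 CPM in WT libraries, and the interval of its log2 change, -0.09 to 0.15 (95%), bounds the difference that these libraries allow.

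The other sheath and membrane genes had log2 changes in KO between -0.04 for Mal and 0.18 for Mog, and the transcription factors between 0.03 for Olig1 and 0.23 for Nkx6-2. Of the remaining genes, Cnp had -0.05 ± 0.08, Gjc3 0.02 ± 0.12, Bcas1 0.05 ± 0.11, Evi2a -0.08 ± 0.28, Cryab 0.09 ± 0.10, Cspg4 -0.05 ± 0.12 and Gpr17 0.01 ± 0.10. Intervals were wide for genes of few counts, such as Nkx6-2 (-0.65 to 1.11) and Enpp6 (-0.77 to 0.66).

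Whether a gene changed differently in the vector comparison than between KO and WT was tested directly, as the vector effect minus the knockout effect in 1 fit of all 12 libraries. The comparisons run in opposite directions for Fst itself, which was high in the Fst vector libraries and low in the KO libraries. A gene with opposite log2 changes in them therefore gives a large difference, as did Tspan2 (0.32 for the vector and -0.33 for KO) and Pdgfra (0.22 and -0.24). Of 31 genes, 0 were called by edgeR, against 0.281% of all 15632 genes tested, and the smallest adjusted p was 0.224, for Aspa, with a difference of 1.33 ± 0.40 on the log2 scale. At an unadjusted p under 0.05 there were 9 higher and 0 lower, against 4.31% higher and 5.65% lower over all genes in edgeR. Besides Aspa the 9 were Cnp (0.46 ± 0.14), Mobp (0.40 ± 0.14), Mbp (0.37 ± 0.13), Tspan2 (0.64 ± 0.25), Gjc3 (0.53 ± 0.21), Pdgfra (0.45 ± 0.20), Bcas1 (0.47 ± 0.21) and Evi2a (0.87 ± 0.40). DESeq2 gave 0 called, 6 higher and 1 lower, the last being Ermn. Over its 29564 genes it gave 628 higher and 933 lower at this limit. In edgeR there were 4 higher genes at this limit without WT M2 and 5 without KO M1.

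Levels also differed between the tables. Vector treatment and table cannot be told apart, so the following is a description. For 8 genes (Mbp, Cnp, Mag, Mog, Mobp, Cldn11, Sox10 and Nkx6-2) the 6 vector libraries all lay above the 6 libraries of KO and WT, and for 0 genes all below. Over all genes these shares were 7.01% above and 4.25% below. Mbp averaged 729 CPM in vector libraries and 495 CPM in KO and WT libraries, a ratio of 1.47. Nkx6-2, a homeobox factor of maturing oligodendrocytes, averaged 3.52 CPM in vector libraries and 1.29 CPM in KO and WT libraries, a ratio of 2.72. This ratio rests on 26 to 51 counts in vector libraries, against 4 to 21 in KO and WT libraries. Inpp5a, which shares 246 exon bases with Nkx6-2, had 261 to 656 counts in vector libraries, against 184 to 272 in KO and WT libraries. Whether its reads were counted for Nkx6-2 was not tested. The precursor gene Pdgfra had a ratio of 0.954 and Cspg4 one of 0.835. Sox10 and Cldn11, with ratios of 1.46 and 1.73, had log2 changes of 0.01 and -0.02 between the Fst and GFP vector groups.

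In what follows, a value after a gene name in parentheses is its log2 change with the SE. Further oligodendrocyte genes were taken from a list of 30 mature and 20 precursor genes outside the 32. Of 27 mature genes tested in the vector comparison, edgeR called 1, against 0.0798% of all genes tested. It was Sept4, a septin of a family that scaffolds myelin, and it was higher with the Fst vector. Sept4 had 92.6, 88.4 and 91.7 CPM in Fst vector libraries, against 47.0, 41.4 and 44.0 CPM in GFP vector libraries, a log2 change of 1.01 ± 0.11 with an edgeR adjusted p of 0.0268. Its adjusted p was 0.0322 without GFP vector M1, and 0.0521 to 0.179 without any 1 of the 5 other libraries. In KO libraries it averaged 39.3 ± 3.48 CPM, against 41.9 ± 2.49 CPM in WT libraries (SD, n = 3), and the difference of the effects was 1.07 ± 0.14 with an edgeR adjusted p of 0.00278. Of the 27 genes 23 were positive with a median log2 change of 0.31, against 51.0% positive and a median of 0.01 over all genes. In edgeR 8 of them were higher and 0 lower at an unadjusted p under 0.05, against 4.34% higher and 5.16% lower over all genes. Plekhb1, a membrane adaptor, had the next smallest p (0.40 ± 0.13). Between KO and WT, 0 of 26 were called, the median was -0.02, and Car2, the carbonic anhydrase of oligodendrocytes, and Ndrg1 had the smallest p (0.16 ± 0.07 and -0.30 ± 0.15).

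Of the 20 precursor genes 0 were called in the vector comparison, with a median log2 change of -0.07, and 0 of 19 between KO and WT, with a median of -0.05. The smallest p-values belonged to Rlbp1 (0.65 ± 0.15) and C1ql1 (-0.81 ± 0.27) in the vector comparison and to Dll3 (-1.08 ± 0.34) and Nkx2-2 (-0.59 ± 0.36) between KO and WT. Cholesterol synthesis, which supplies the sheath with sterol, had 0 of 22 called in the vector comparison (median -0.18) and 0 of 21 between KO and WT (median -0.04), with the smallest p for Tm7sf2 (0.52 ± 0.13) and Insig1 (-0.34 ± 0.16) and for Fdft1 (-0.21 ± 0.10) and Dhcr7 (-0.15 ± 0.09). Sphingolipid synthesis had 0 of 17 called in each, with medians of 0.00 and -0.05. The smallest p-values there were those of Ugcg (0.26 ± 0.11) and Kdsr (-0.20 ± 0.12) in the vector comparison, and Sgms1 (-0.15 ± 0.10) and Sptlc1 (0.13 ± 0.09) between KO and WT.

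**Figure D4:**
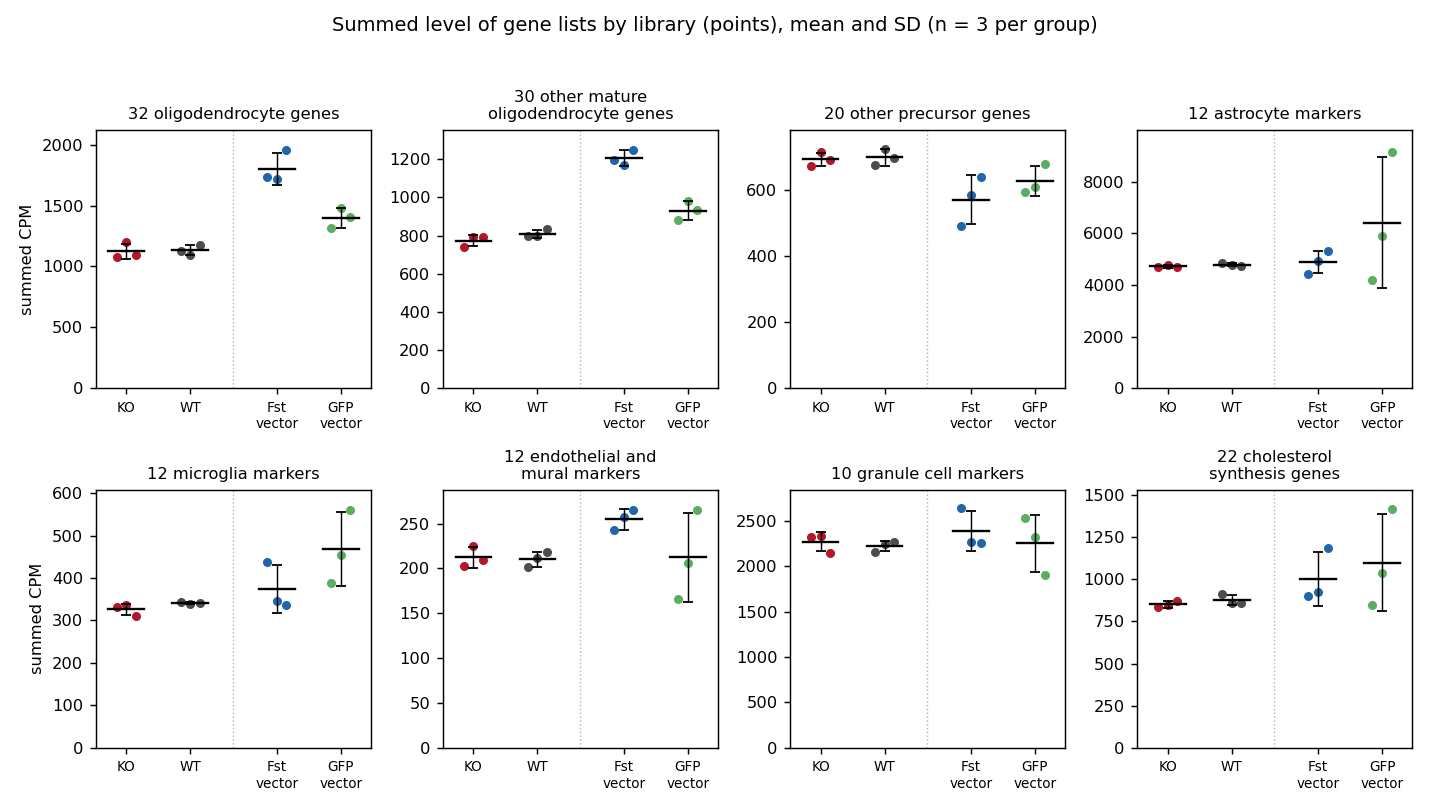
Summed CPM of 8 gene lists in each library (points), with the group mean (bar) and SD (n = 3), for KO, WT, Fst vector and GFP vector libraries; the dotted line parts the separately deposited tables. The oligodendrocyte and other mature lists lie higher in all Fst vector libraries than in all GFP vector libraries, the precursor, granule cell and cholesterol lists overlap, and the astrocyte list spreads widely in the GFP vector group.

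Markers of other cells are given beside the oligodendrocyte genes in the plot of summed lists, with 0 called in either comparison, and their part in the results was not tested. The 12 astrocyte markers summed to 4436 to 5304 CPM in Fst vector libraries, against 4192 to 9169 CPM in GFP vector libraries, with 0 of 12 called. Gfap, the filament of astrocytes, had 613, 620 and 1033 CPM in Fst vector libraries, against 566, 1555 and 4864 CPM in GFP vector libraries, so the libraries with the most Gfap, GFP vector F and M2, were also the highest for Ermn. The 12 microglia markers summed to 337 to 438 CPM in Fst vector libraries, against 389 to 561 CPM in GFP vector libraries, and all 12 log2 changes were negative (median -0.31, 0 called). At an unadjusted p under 0.05 in edgeR, 4 of these 12 were lower and 0 higher, against 5.16% lower over all genes. The 12 endothelial and mural markers summed to 242 to 265 CPM in Fst vector libraries, against 166 to 265 CPM in GFP vector libraries. Of these 12, 10 had a positive log2 change and 2 a negative one (median 0.20). In edgeR 1 was higher and 0 were lower at an unadjusted p under 0.05, against 4.34% higher and 5.16% lower over all genes.

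Regions next to the dentate gyrus were read the same way, and 0 genes of these lists were called. The 8 thalamus and habenula markers summed to 53.7 to 83.6 CPM in Fst vector libraries, against 43.3 to 50.4 CPM in GFP vector libraries, led by Nwd2 (0.96 ± 0.28) and Ramp3 (1.92 ± 0.70). Of 7 tested, 6 had a positive log2 change (median 0.34). Tcf7l2 of this list is also among the 20 precursor oligodendrocyte genes, so the lists are not fully separate. As 10 of 12 endothelial and mural markers were positive too, a mostly positive shift was not particular to oligodendrocyte genes. At an unadjusted p under 0.05 in edgeR, 2 of the 7 thalamus and habenula genes were higher and 1 was lower, against 4.34% higher and 5.16% lower over all genes. The 6 CA1 markers summed to 65.7 to 78.6 CPM in Fst vector libraries, against 81.2 to 96.1 CPM in GFP vector libraries, with Fibcd1 at -2.24 ± 0.53 and Mpped1 at 0.36 ± 0.19. The 8 ependyma and choroid plexus markers summed to 16.3 to 22 CPM in Fst vector libraries, against 21.4 to 37.1 CPM in GFP vector libraries, and 4 of the 8 could be tested. Kcnj13 had no count in Fst vector libraries M1, M2 and F, where a count of 0 allows up to 0.295, 0.304 and 0.332 CPM. Clic6 of this list and Klk6 of the mature oligodendrocyte list had no count in the KO libraries, where the limit was 0.305 to 0.322 CPM. The 10 fibroblast markers summed to 44.9 to 101 CPM in Fst vector libraries, against 67.3 to 152 CPM in GFP vector libraries. Granule cell markers summed to 2258 to 2644 CPM in Fst vector libraries, against 1907 to 2527 CPM in GFP vector libraries.

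The smallest p-values among these lists in the vector comparison, all with an edgeR adjusted p above 0.05, belonged to Gja1 (0.30 ± 0.12) and Gfap (-1.66 ± 0.80), Tmem119 (-0.53 ± 0.23) and C1qc (-0.52 ± 0.22), Slco1a4 (0.47 ± 0.16) and Cldn5 (0.48 ± 0.25), Trpc6 (1.28 ± 0.28) and Stxbp6 (0.47 ± 0.17), Foxj1 (-1.29 ± 0.44) and Kl (-0.47 ± 0.36), and Col1a1 (-1.34 ± 0.68) and Lum (0.67 ± 0.37). Between KO and WT they belonged to Gfap (0.16 ± 0.06) and Gja1 (-0.12 ± 0.05), Fcrls (-0.29 ± 0.12), Acta2 (0.80 ± 0.37) and Cldn5 (0.27 ± 0.13), and Plk5 (0.26 ± 0.06) and Rasl10a (0.27 ± 0.08). Of the neighbouring regions they were Wfs1 (-0.23 ± 0.10) and Dcn (-0.53 ± 0.25), Ramp3 (-0.49 ± 0.24) and Tcf7l2 (0.30 ± 0.24), Kl (-0.13 ± 0.12) and Ttr (-0.17 ± 0.32), and Slc13a4 (-1.12 ± 0.35) and Ogn (0.48 ± 0.20). Between KO and WT the summed levels lay closer together, with astrocyte markers at 4680 to 4782 CPM in KO libraries, against 4735 to 4855 CPM in WT libraries, and microglia markers at 312 to 337 CPM in KO libraries, against 339 to 344 CPM in WT libraries. The microglia sums did not overlap. The 30 other mature oligodendrocyte genes summed to 738 to 791 CPM in KO libraries, against 796 to 832 CPM in WT libraries, also without overlap. Nor did the sphingolipid sums overlap, with 655 to 662 CPM in KO libraries, against 665 to 672 CPM in WT libraries. Sums of the remaining lists overlapped, and the sums were not tested.

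Within libraries of like ribosomal RNA share, the median log2 ratio of the 31 genes between the vector groups was 0.30 with the higher share (Fst vector M2 and F against GFP vector M2) and 0.13 with the lower share (Fst vector M1 against GFP vector M1 and F), with 27 and 24 genes positive. Both counts include the 9 genes without overlap between the groups, which are positive in any such set. No such count was made over all genes, so the counts describe these libraries only. Mbp gave 0.30 and 0.45, Bcas1 0.45 and 0.63, and Aspa 0.96 and 0.97 in these pairs of sets, where a positive sign follows from the lack of overlap between the groups. Pdgfra, which overlapped, gave 0.54 and -0.23. By sex the median was 0.40 between the female libraries and 0.22 between the male libraries. Between KO and WT the medians were -0.03 with the higher share, 0.03 with the lower share, 0.14 in females and -0.06 in males. Some of these sets hold 1 library of a group, so no test was made in them.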

How the data were processed

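RNA was measured as whole-number counts of reads per Ensembl gene, which the authors deposited in a table of KO and WT and another of the vector groups, 6 libraries each. Per the submitters' processing notes, the build was GRCm38. Not given in the sources used here are the aligner, counting tool, annotation and handling of strand. A further 6 lines (KO and WT) and 12 lines (vector groups) that name no gene held 0 counts and were left out. Symbols, coordinates and exon lengths (union of exons) came from the GENCODE annotation of GRCm38, and promoters from RefSeq.

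The members and lists were chosen with earlier results of these data known. KO was compared with WT, and Fst vector with GFP vector, each on its own 6 libraries, by the quasi-likelihood test of edgeR (version 4.0.16 in R 4.3.3) with TMM scaling, filterByExpr and Benjamini-Hochberg adjustment over all genes tested at 0.05; the step was tested on simulated data. The difference of the effects was fitted on all 12 libraries. CPM were computed from the deposited counts. Intervals of a log2 change are 95% and the limit for a count of 0 is 3 counts, which covers counting error only.

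All members are described, with values by library for the 6 smallest p-values in each comparison. Evi2a, Mag, Cryab, Cldn11 and Ermn in the vector comparison and Mbp in KO were added after their values were seen. Of each other list, genes past the threshold, or else the 2 with the smallest p, are named, except 1 gene that is not reported here. Alternatives were DESeq2 1.42.0, RLE factors, library totals, no filter, terms for sex and ribosomal RNA share, a replicate block and each library left out. Same-named libraries of the vector groups deviated together (M1 correlated at 0.325, M2 at 0.138 and F at 0.390, above the bound of 0.1) and were paired in the replicate block alternative only, though no label states it, while the values reported come from the fit without pairs; Fst vector M2 also correlated with GFP vector M1 (0.119).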

Additional observations from a re-analysis of the deposited data

How the results depend on the processing

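Under every alternative run, 0 of the 31 genes (0 of 32 without the filter or with DESeq2) were called in either comparison or in the difference of the effects. In the vector comparison, 1 gene, Ermn, was lower at an unadjusted p under 0.05 with the replicate block (pairing by name) and with sex as a term. In the difference of the effects, Ermn alone was lower, 1 gene, with DESeq2, with the replicate block, without GFP vector M1 and without Fst vector F. Its difference without GFP vector M1 was -1.24 ± 0.30, with an unadjusted p of 0.000964 and an adjusted p of 0.0639 in edgeR. Without Fst vector F the unadjusted p was 0.0324 in edgeR. Leaving out 1 library at a time gave a median log2 change of 0.18 to 0.35 in the vector comparison, -0.05 to 0.05 between KO and WT and 0.22 to 0.35 for the difference. Genes at an unadjusted p under 0.05 then numbered 5 to 10 higher and 0 to 1 lower in the vector comparison, 0 to 1 higher and 0 to 2 lower between KO and WT, and 4 to 9 higher and 0 to 1 lower for the difference. The sign held with every library left out for 22 positive genes and 1 negative gene in the vector comparison and for 7 positive and 4 negative genes between KO and WT. Single uncalled genes changed sign in 19 of 403 refits of the vector comparison, 40 of 403 of KO and WT and 39 of 527 of the difference. The cause was not tested.

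Over all genes, calls numbered 46 without the filter, 30 with sex, 23 with the replicate block, 9 with ribosomal RNA share and 2 to 17 with a library left out between KO and WT, against 4. In the vector comparison they numbered 247 with DESeq2, 230 without the filter, 141 with the block, 132 with sex and 1 to 29 with a library left out, against 12. For the difference they numbered 289 with the block, 240 with DESeq2, 210 without the filter and 13 to 183 with a library left out, against 44. The block moved no call among the 31 genes, and between KO and WT, where same-named libraries did not all deviate together (0.0607, 0.130 and -0.0805), it is given for completeness only. Library totals in place of TMM changed the genes at an unadjusted p under 0.05 to 823 higher and 627 lower against 653 and 776 in the vector comparison, to 305 and 581 against 440 and 449 between KO and WT and to 1029 and 639 against 673 and 883 for the difference, with 8 higher and 0 lower, 0 and 2, and 9 and 0 of the 31. Groups of 3 libraries limit what differences of low genes such as Enpp6 and Nkx6-2 could be detected.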
